A study of Mus musculus with 58 samples.

Results

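The renin-angiotensin system genes comprised 9 genes of the 56953 in the count table: the precursor Agt, the proteases Ren1, Ace, Enpep and Anpep, the receptors Agtr1a, Agtr2 and Mas1, and Atp6ap2, which encodes the (pro)renin receptor. They were found by matching Ensembl identifiers to symbols and were measured in adipose stem cells (ASC) sorted from inguinal white adipose tissue (iWAT) of C57BL6/J mice. Of the 9 genes, 7 had at least 5 reads in more than 3 libraries and were tested among 12464 genes, whereas Ren1 and Mas1 did not reach that count.

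Renin cleaves angiotensinogen, the product of Agt, to angiotensin I, and angiotensin-converting enzyme (ACE) trims this peptide to angiotensin II. Angiotensin II acts mainly through the AT1 receptor, while the AT2 receptor often opposes AT1, and aminopeptidases A and N, encoded by Enpep and Anpep, shorten the peptide further. Liver is the main source of circulating angiotensinogen, and adipose tissue is a well-known local source.

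All cells were CD45-/CD31-/CD34+. The DPP4- fraction is called ASC1 and the DPP4+ fraction ASC2. Mice of the operated groups were castrated or ovariectomized at 4 weeks of age, every group was terminated at 10 weeks, and the controls are labelled only as control. The 58 bulk Smart-seq3 libraries (full-length cDNA from sorted cells) came from control males (7 ASC1, 8 ASC2), castrated males (8 and 8), control females (8 and 8) and ovariectomized females (3 and 8). Libraries are named here by the letter and number of their label, with A to H for controls and I to P for operated mice. Nothing in the labels ties an ASC1 library to an ASC2 library of the same mouse. Values are normalised read counts in CPM (each count relative to its library's TMM-scaled total), so levels are compared between groups and not between genes of different length.

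The labels and the sex-linked transcripts disagreed in 27 of 58 libraries, which is stated here because it touches most comparisons. A library was counted as going against its label when a male one had at least 20 CPM of Xist, the RNA that coats the silenced X chromosome, or a female one at least 20 CPM of 4 Y-linked genes together. This held for all 8 libraries labelled castrated male ASC1, where Xist was 51.7 to 117.9 CPM and the Y-linked sum at most 4.70 CPM. It also held for 4 of 7 control male ASC1, 4 of 8 control male ASC2, 5 of 8 control female ASC1 and 6 of 8 control female ASC2 libraries, and for none of the castrated male ASC2 or ovariectomized female libraries. In control males these were the libraries of letters E to H in both populations, so control values are also given within letters A to D and E to H. Total reads per library ranged from 106562 to 1421518. The 4 fibroblast markers summed to 3010 to 13908 CPM in 7 groups and to 42899 to 44887 CPM in the 3 ovariectomized ASC1 libraries, in which 4 of 4 epithelial markers had no read. Whether libraries that share a group came from separate mice is not stated in the labels. The authors list 8 castrated and 8 ovariectomized mice with controls, and give n for these samples as biological replicates. The p-values measure the spread between libraries.

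The RefSeq promoter windows (250 bases before to 50 bases after the start, GRCm38.p6) of 8 of 9 genes were found. Those of Agt, Ace and Agtr2 are shown, the genes of the precursor, the converting enzyme and the AT2 receptor. No window was listed for the AT1 receptor gene Agtr1a. Capitals mark TATAAA or its reverse complement TTTATA, and TGTTCT or AGAACA, a core hexamer bound by steroid receptors such as the glucocorticoid receptor, was searched on both strands as well. Agt lies at chr8:124569657-124569956 on the minus strand, Ace at chr11:105967698-105967997 on the plus strand and Agtr2 at chrX:21484374-21484673 on the plus strand.
Agt: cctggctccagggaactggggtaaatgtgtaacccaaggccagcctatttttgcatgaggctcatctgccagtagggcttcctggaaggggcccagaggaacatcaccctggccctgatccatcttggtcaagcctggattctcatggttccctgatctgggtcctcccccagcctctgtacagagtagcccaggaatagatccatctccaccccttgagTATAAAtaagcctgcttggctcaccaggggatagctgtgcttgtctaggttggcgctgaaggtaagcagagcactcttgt
Ace: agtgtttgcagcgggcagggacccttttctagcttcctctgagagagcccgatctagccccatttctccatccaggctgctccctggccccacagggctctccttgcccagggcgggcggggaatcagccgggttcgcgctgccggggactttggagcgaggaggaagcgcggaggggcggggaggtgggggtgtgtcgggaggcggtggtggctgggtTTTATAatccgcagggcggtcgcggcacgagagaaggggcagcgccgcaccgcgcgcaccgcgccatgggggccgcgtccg
Agtr2: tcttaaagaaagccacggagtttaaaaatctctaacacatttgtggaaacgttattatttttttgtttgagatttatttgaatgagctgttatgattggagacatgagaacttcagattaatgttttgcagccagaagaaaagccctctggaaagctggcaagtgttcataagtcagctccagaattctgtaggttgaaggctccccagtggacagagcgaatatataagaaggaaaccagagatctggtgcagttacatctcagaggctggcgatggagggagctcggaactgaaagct
The Agt window held TATAAA from 30 bases before the start, the Ace window held TTTATA, and the Agtr2 window held neither. Only these exact letters were searched, and variants of them were not counted. TATAAA on either strand was present in 13.6% of 32851 promoters. The receptor hexamer was in none of these 3 windows and in 19.0% of all promoters. Among the other members it was found in the Atp6ap2 window only, and Ace has an additional listed start 7241 bases downstream. GC content was 54.7% for Agt, 69.7% for Ace and 41.3% for Agtr2, against a median of 52.7% over all promoters.

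**Figure D1:**
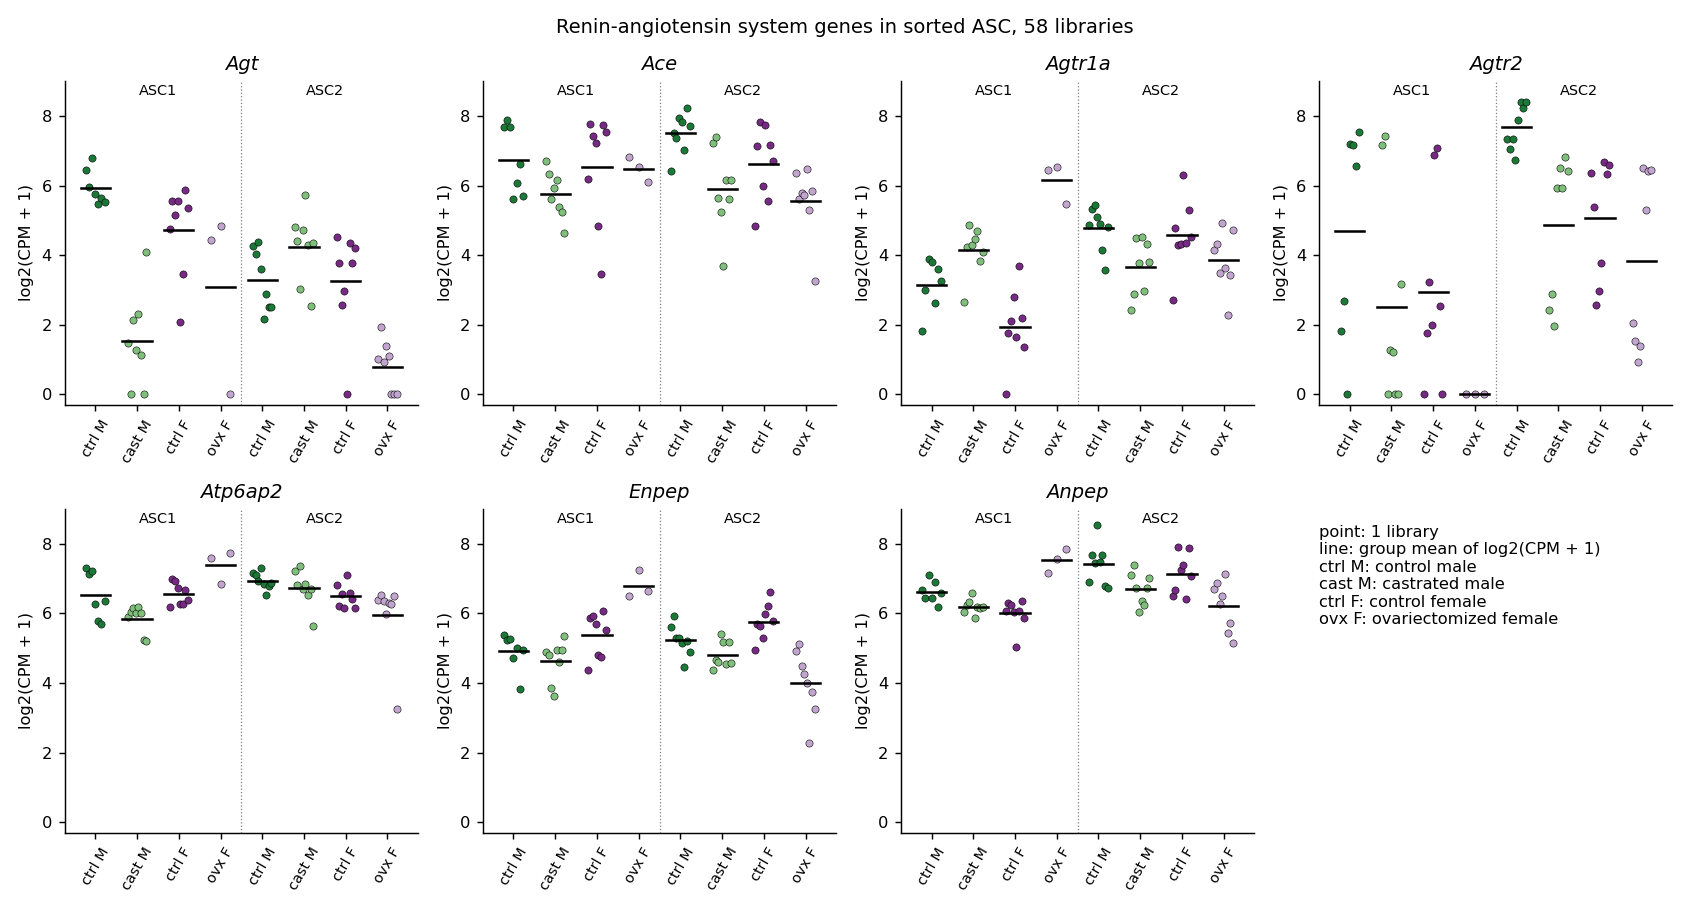
Levels of the 7 tested renin-angiotensin system genes as log2(CPM + 1) on the vertical axis in 8 groups (ASC1 left of the dotted line, ASC2 right), with 1 point per library and a line at the group mean. Agt lies lowest in castrated male ASC1 and ovariectomized female ASC2, and Agtr2 splits into low and high libraries within most groups.

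Agt was the member that differed most after castration, in ASC1. In control male ASC1 the lowest, median and highest libraries (n = 7) had 43.2, 52.9 and 109.9 CPM, and in castrated male ASC1 (n = 8) they had 0, 1.61 and 15.9 CPM. The groups did not overlap, and 2 of the 8 castrated libraries had no Agt read. Agt (ENSMUSG00000031980.11) was 22.8-fold lower (log2 fold change -4.51 ± 0.55 SE, edgeR adjusted p = 1.04e-07). The log2 fold change was -4.93 against control libraries of letters B to D and -4.09 against letters E to H. All 8 castrated ASC1 libraries carried Xist against their label, so no value without such libraries can be had, and castration cannot be told apart from what set these libraries apart.

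In ASC2 Agt did not pass the test after castration. Control male ASC2 libraries (n = 8) had 3.51, 8.71 and 19.7 CPM of Agt at the lowest, median and highest, and castrated male ASC2 libraries (n = 8) had 4.77, 19.8 and 52.0 CPM. These ranges overlapped, and the difference did not pass the threshold (log2 fold change 1.09 ± 0.45 SE, edgeR adjusted p = 0.129). Among the controls, letters A to D had 11.1 to 19.7 CPM and letters E to H 3.51 to 6.32 CPM, without overlap. The log2 fold change was 0.46 against the former and 2.27 against the latter, neither past the threshold. Tested against each other, the castration differences of the ASC populations were apart by 5.60 ± 0.72 (ASC2 minus ASC1, log2) (edgeR adjusted p = 1.43e-06). This too rests on castrated ASC1 libraries that all go against their label.

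The lowest Agt level of the 8 groups was found after ovariectomy, in ASC2. The 8 ovariectomized female ASC2 libraries had 0, 0.98 and 2.87 CPM at the lowest, median and highest, with 7 reads in all, and the 8 control female ASC2 libraries had 0, 12.7 and 22.1 CPM. Library E3 was the only control without an Agt read, and it alone makes the ranges overlap. Agt fell by 3.03 ± 0.68 on the log2 scale (edgeR adjusted p = 0.00587). With the 2 control libraries that matched their sex label the log2 fold change was -2.02 and did not pass (adjusted p = 0.835). It was -2.93 with control letters A to D (adjusted p = 0.0512), -3.15 with E to H (adjusted p = 0.0082) and -2.14 with limma (adjusted p = 0.143). In ASC1 the ovariectomized libraries had 20.5 CPM (L4), 27.5 CPM (N4) and 0 CPM (P4), and controls 3.20, 37.6 and 57.6 CPM at the lowest, median and highest. That difference did not pass (log2 fold change -0.89 ± 0.66 SE, edgeR adjusted p = 0.301). The castration and ovariectomy differences of Agt in ASC2 differed from each other by 4.12 ± 0.82 on the log2 scale (edgeR adjusted p = 0.0057), and the call was lost without libraries against their label (2.48, adjusted p = 0.8), with control letters A to D (3.39, adjusted p = 0.0542) and with limma (3.25, adjusted p = 0.0917).

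Sex-linked transcripts and Agt went together in some groups and not in others. Castrated ASC1 and ovariectomized ASC2, the 2 groups with the lowest Agt, had a Y-linked sum of at most 4.70 and of 0 CPM, and castrated ASC2, with more Agt, had 55.6 to 99.6 CPM. Ovariectomized ASC1 had a Y-linked sum of at most 1.14 CPM and a mean of 16.0 CPM of Agt, above the 10.4 CPM of control male ASC2, where the Y-linked sum was 12.5 to 127.7 CPM. Control male ASC1 libraries E2 to H2 had Y-linked sums of 4.34 to 15.5 CPM and 43.2 to 52.9 CPM of Agt. Ddx3y, a Y-linked RNA helicase, was among the 3 genes most like Agt over the 58 libraries (Pearson r = 0.63 of log2(CPM + 1)), after Gpnmb (r = 0.69), a lysosomal membrane glycoprotein, and Cd36 (r = 0.65), a fatty acid transporter. Over the 8 group means the nearest genes were BC037039, Borcs5 and Slc24a5 (r = 0.96, 0.93 and 0.91). These correlations describe libraries that share groups and depth, and the part of sex-linked differences in the Agt results was not tested.

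Ace encodes the converting enzyme and was lower after castration in ASC2. The control male libraries had 83.7, 193.1 and 299.1 CPM at the lowest, median and highest (n = 8 each), and the castrated ones 12.0, 59.5 and 167.4 CPM. The ranges overlapped, and Ace (ENSMUSG00000020681.15) fell by 1.34 ± 0.41 on the log2 scale (edgeR adjusted p = 0.0355). The log2 fold change was -1.14 with the 4 control libraries of letters A to D, and neither this nor the value with those of E to H was past the threshold (adjusted p = 0.0706 and 0.0796). Leaving out libraries against their label keeps those same letters A to D, and the log2 fold change was -1.14 as well (edgeR adjusted p = 0.0992). With only the groups compared it was -1.33 (adjusted p = 0.0531). In ASC1 the median was 97.2 CPM in controls and 54.1 CPM after castration (log2 fold change -1.12 ± 0.43 SE, edgeR adjusted p = 0.188). The control male ASC1 libraries of letters B to D had 202.8 to 236.7 CPM and those of E to H 47.7 to 97.2 CPM, without overlap. Against letters B to D alone the difference passed (log2 fold change -1.85, edgeR adjusted p = 0.00641), against E to H it did not, and without the count filter it passed as well (-1.15, adjusted p = 0.0294). In females the medians were 121.5 CPM in control and 53.4 CPM in ovariectomized ASC2 (log2 fold change -1.08 ± 0.42 SE, edgeR adjusted p = 0.201). All neighbours in the order of the 8 group means of Ace overlapped, from 191.1 CPM in control male ASC2 to 53.3 CPM in ovariectomized female ASC2. Cd248 (endosialin, a stromal surface protein), Slc43a3 and Cfb (complement factor B) were most like Ace over the libraries (r = 0.75, 0.75 and 0.72), and Gm28875, Gtf2a1 and Zfyve19 over the group means (r = 0.95, 0.94 and 0.94).

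The AT1 receptor gene Agtr1a was the member with the clearest difference after ovariectomy, in ASC1. The 3 ovariectomized ASC1 libraries had 86.4 CPM (L4), 91.6 CPM (N4) and 43.1 CPM (P4), from 76, 20 and 7 reads. These libraries detected 11622, 9696 and 9122 genes, each fewer than at least 7 of the 8 control female ASC1 libraries, and had TMM factors of 0.79 to 0.86 against 0.99 to 1.11, whose part in the differences of this group was not tested. Control female ASC1 libraries (n = 8) had 0, 2.86 and 12.0 CPM at the lowest, median and highest, far below all 3. Agtr1a (ENSMUSG00000049115.16) was 18.0-fold higher (log2 fold change 4.17 ± 0.50 SE, edgeR adjusted p = 1.59e-09), or 3.80 with the 3 control libraries that matched their label and 3.99 to 4.42 with each ovariectomized library left out. The ovariectomized ASC1 mean, 73.7 ± 26.6 CPM (SD, n = 3), was the only one of the 8 group means whose libraries did not overlap with those of the next, control male ASC2 at 28.4 ± 10.6 CPM (SD, n = 8). The gap was narrow, since the highest control male ASC2 library had 42.6 CPM. Library E3 of control female ASC2, at 77.2 CPM, lay within the ovariectomized ASC1 range.

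With the libraries taken as labelled, the castration difference of Agtr1a was not the same in the ASC populations. In ASC2 the median fell from 28.6 CPM in controls to 12.8 CPM (log2 fold change -1.11 ± 0.36 SE, edgeR adjusted p = 0.0448). This call held against control letters A to D (log2 fold change -1.43) and was lost against E to H (-0.68, adjusted p = 0.557) and with only the groups compared (-1.09, adjusted p = 0.0877). In ASC1 the median was 8.49 CPM in controls and 18.2 CPM in castrated mice, a difference that did not pass on its own (log2 fold change 1.01 ± 0.40 SE, edgeR adjusted p = 0.201). The castration difference was lower in ASC2 than in ASC1 by 2.12 ± 0.53 on the log2 scale (edgeR adjusted p = 0.0154), and by 1.61 with control letters E to H alone, where it did not pass (adjusted p = 0.414). All 8 castrated ASC1 libraries go against their label, so castration cannot be told apart from what set these libraries apart. After ovariectomy the ASC2 median was 14.0 CPM against 20.7 CPM (log2 fold change -0.85 ± 0.36 SE, edgeR adjusted p = 0.252). Eif3e (a translation initiation factor subunit), Ogn (the proteoglycan osteoglycin) and Gpbp1 were the genes most like Agtr1a over the libraries (r = 0.75, 0.75 and 0.71), and Zfp944, Hoxa10 and Irs1 (an insulin receptor substrate) over the group means (r = 0.97 each).

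**Figure D2:**
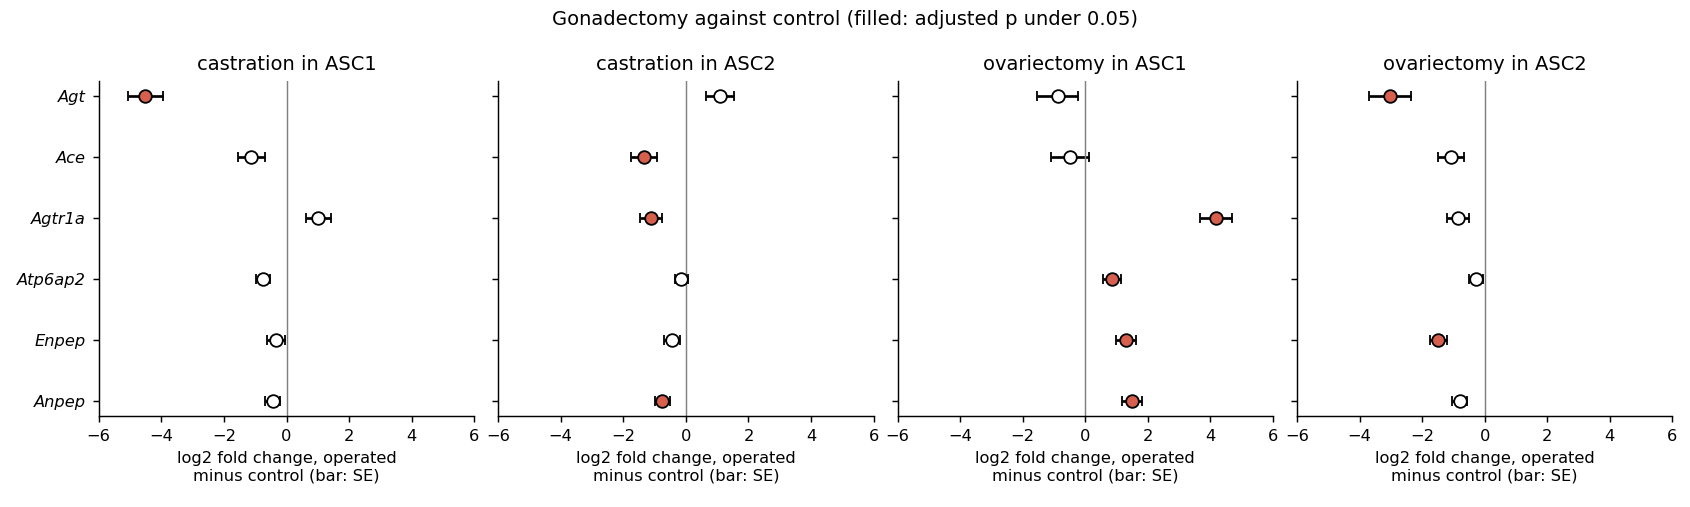
Log2 fold change of operated over control libraries on the horizontal axis for 6 members (bar, SE; filled, edgeR adjusted p under 0.05) in 4 comparisons. Agtr2 is left out because its SE reaches 3.77. Agt fell by 4.51 after castration in ASC1 and by 3.03 after ovariectomy in ASC2, and Agtr1a was higher by 4.17 after ovariectomy in ASC1.

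The aminopeptidase genes Enpep and Anpep were higher in ovariectomized ASC1 as well. Enpep (ENSMUSG00000028024.15; aminopeptidase A, which turns angiotensin II into angiotensin III) had 88.6, 98.6 and 151.1 CPM in the 3 ovariectomized libraries and 19.6, 47.6 and 66.0 CPM at the lowest, median and highest of the 8 controls. Anpep (ENSMUSG00000039062.16; aminopeptidase N, which acts on angiotensin III) had 142.0, 187.7 and 228.0 CPM against 32.0, 65.6 and 80.4 CPM. Neither gene overlapped between the groups. Enpep was higher by 1.30 ± 0.33 on the log2 scale (edgeR adjusted p = 0.00158), and Anpep was 2.83-fold higher (SE of the log2 fold change 0.32, edgeR adjusted p = 0.000171). With the control libraries that matched their label the log2 fold changes were 2.14 and 1.82.

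In ASC2 Enpep was lower after ovariectomy. It had 29.5, 52.4 and 96.6 CPM in control female ASC2 and 3.83, 16.4 and 33.4 CPM after ovariectomy at the lowest, median and highest, and the ranges overlapped slightly. Enpep fell by 1.48 ± 0.27 on the log2 scale (edgeR adjusted p = 0.000465), or by 1.12 with the 2 controls that matched their label (adjusted p = 0.564) and by 1.06 with control letters A to D (adjusted p = 0.255). Anpep had medians of 142.3 CPM and 82.0 CPM and a log2 fold change of -0.80 ± 0.24 SE that did not pass (edgeR adjusted p = 0.0562). After castration Anpep in ASC2 fell from a median of 174.6 CPM to 105.2 CPM, by 0.75 ± 0.23 on the log2 scale (edgeR adjusted p = 0.036), and the call was lost against control letters E to H (log2 fold change -0.45, adjusted p = 0.524) and with only the groups compared (-0.74, adjusted p = 0.116). Enpep did not pass after castration in either population (log2 fold changes -0.34 ± 0.28 SE in ASC1 and -0.45 ± 0.26 SE in ASC2).

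Over the libraries, Ces2g (a carboxylesterase), Mgst1 (a microsomal glutathione transferase) and Tmem159 were most like Enpep (r = 0.73, 0.71 and 0.71), and Tmem53, Plgrkt and Appl2 over the group means (r = 0.99, 0.97 and 0.97). For Anpep these were Phactr2, Krt36 and Ifi205 (r = 0.82, 0.82 and 0.80) and, over the group means, Abca6, Fbxo6 and Cryz (r = 0.99, 0.98 and 0.97).

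Atp6ap2 (ENSMUSG00000031007.3), which binds renin and prorenin and also belongs to the vacuolar proton pump, had its lowest group mean in castrated male ASC1 and its highest, 172.0 CPM, in ovariectomized female ASC1. The 3 ovariectomized ASC1 libraries had 114.5, 192.0 and 209.5 CPM and the 8 controls 71.8, 90.9 and 125.1 CPM at the lowest, median and highest (log2 fold change 0.86 ± 0.29 SE, edgeR adjusted p = 0.0165). This call was lost without library L4 (log2 fold change 0.72, adjusted p = 0.158) and without P4 (0.76, adjusted p = 0.0715), and held without N4. In castrated male ASC1 the median was 63.1 CPM against 80.7 CPM in controls (log2 fold change -0.76 ± 0.23 SE, edgeR adjusted p = 0.0527). DESeq2 placed that difference past the threshold (log2 fold change -0.72, DESeq2 adjusted p = 0.0317). Here too the control libraries fell apart by letter, with 138.6 to 157.2 CPM in B to D and 50.8 to 80.7 CPM in E to H, all against their label. The difference passed against B to D (log2 fold change -1.31, edgeR adjusted p = 0.000674) and not against E to H. Hfe (the haemochromatosis protein), Cd36 and Pdp1 were most like Atp6ap2 over the libraries (r = 0.79, 0.76 and 0.75), and Cab39l, Rmi1 and Kitl (stem cell factor) over the group means (r = 0.99, 0.98 and 0.98).

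In counts, 1 of 7 tested members passed after castration in ASC1, where 2.36% of all genes tested did, and 3 of 7 in ASC2, where 6.95% did. After ovariectomy 4 of 7 passed in ASC1, where 34.8% of all genes did and the median of all genes was at a log2 fold change of -0.34, and 2 of 7 in ASC2, against 2.09%. The 4 in ASC1 were all higher and the other 6 all lower. The median of the members was -0.76 and -0.75 after castration and 0.86 and -0.85 after ovariectomy, in ASC1 and ASC2 respectively. These comparisons share control libraries with those between ASC populations and between sexes. For the differences between effects, 2 of 7 members passed for castration in ASC2 against ASC1 (2.41% of all genes) and 1 of 7 for castration against ovariectomy in ASC2 (0.61%).

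Other cell type markers moved in the same comparisons, and their part in the results was not tested. In ASC1 and ASC2 respectively, 34.8% and 2.09% of all genes passed after ovariectomy, and 2.36% and 6.95% after castration. In ovariectomized ASC1 4 of 4 fibroblast markers were higher, among them Dcn (decorin) by 3.37 on the log2 scale, and 2 of 4 smooth muscle markers lower, with a summed level of 43.1 to 158.0 CPM against 1138 to 2605 CPM in controls. Of 4 endothelial markers 2 were lower there, and of 4 pericyte markers 2 were higher. The 4 mast cell genes summed to 0 to 6.16 CPM against 2.13 to 31.3 CPM in controls, with Cpa3, Kit and Mcpt4 at 0. Among them only Kit was tested, and it was lower (log2 fold change -5.44, edgeR adjusted p = 0.0166). Cpa3 and Mcpt4 had 28 and 15 reads over all 58 libraries. In ovariectomized ASC2 3 of 4 epithelial markers were higher, with a sum of 9.83 to 1024 CPM against 6.34 to 37.8 CPM, and Dcn fell by 0.98. In castrated ASC2 3 of 4 endothelial markers were higher (sum of 36.6 to 92.1 CPM against 10.5 to 38.6 CPM) and Dcn fell by 1.37 on the log2 scale. In castrated ASC1 1 of 4 fibroblast markers, Dcn, and 1 of 3 tested macrophage markers, Cd68, were lower, by 0.79 and 1.64 on the log2 scale. Of 3 ASC2 markers there 1, Dpp4, was higher, by 1.87. Of 3 ASC1a markers 1, Cxcl14, was lower with a log2 fold change of -1.29, and 0 of 2 ASC1b markers passed. The castrated ASC1 libraries all go against their label. In ovariectomized ASC2 2 of 3 ASC2 markers, Dpp4 and Cd55, were lower (-1.42 and -1.55) and 2 of 4 smooth muscle markers, Acta2 and Tagln, higher (1.62 and 1.75). In bulk samples fewer cells of a type and less RNA per cell cannot be told apart.

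In control mice the members were also compared between ASC2 and ASC1. Agt was lower in ASC2 of control males (log2 fold change -2.59 ± 0.44 SE, edgeR adjusted p = 2.63e-05), with no overlap between 3.51 to 19.7 CPM in ASC2 and 43.2 to 109.9 CPM in ASC1. The log2 fold change was -2.38 without libraries against their label (edgeR adjusted p = 0.00411). In control females it was -1.48 ± 0.45 SE (edgeR adjusted p = 0.0302) and -0.64 without such libraries (adjusted p = 0.862). Agtr1a was higher in ASC2, by 1.63 ± 0.38 in males (edgeR adjusted p = 0.00227) and 2.75 ± 0.44 in females (edgeR adjusted p = 6.39e-06) on the log2 scale, with 2.05 and 1.80 without libraries against their label, the latter not past the threshold (adjusted p = 0.354). Anpep was higher in ASC2 by 0.87 ± 0.24 in males (edgeR adjusted p = 0.011) and 1.21 ± 0.24 in females (edgeR adjusted p = 0.000417) on the log2 scale, or by 0.99 (adjusted p = 0.107) and 1.91 (adjusted p = 0.0417) without those libraries. Thus 3 of 7 members passed in each sex, where 12.2% of all genes did in males and 6.11% in females.

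The sorting marker Dpp4 itself was higher in ASC2 in all 4 comparisons, by 5.02 in control males, 3.16 in control females, 2.15 in castrated males and 2.04 in ovariectomized females on the log2 scale. Its castration difference was lower in ASC2 than in ASC1 by 2.87 (edgeR adjusted p = 0.00193), beside the differences of Agt and Agtr1a in that comparison. The castrated ASC1 libraries used there all go against their label.

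After gonadectomy the order of ASC1 and ASC2 changed for several members. In castrated males Agt was higher in ASC2, by 3.01 ± 0.57 on the log2 scale (edgeR adjusted p = 0.00022), and so was Atp6ap2, by 0.89 ± 0.22 (edgeR adjusted p = 0.00428). Agtr1a and Anpep did not pass (log2 fold changes -0.49 ± 0.37 SE and 0.56 ± 0.24 SE). In ovariectomized females 5 of 7 members were lower in ASC2: Agt by 3.63 ± 0.85, Enpep by 2.46 ± 0.34, Agtr1a by 2.28 ± 0.45, Atp6ap2 by 1.20 ± 0.29 and Anpep by 1.09 ± 0.32 on the log2 scale (edgeR adjusted p = 0.000565, 4.53e-08, 5.57e-05, 0.00075 and 0.00554). All 5 calls held with each of the 3 ASC1 libraries left out. Of all genes tested, 9.07% passed in castrated males and 35.4% in ovariectomized females, the latter with a median log2 fold change of 0.37 over all genes, opposite in sign to the 5 members. The comparisons with 8 castrated ASC1 libraries rest on libraries that all go against their label.

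**Figure D3:**
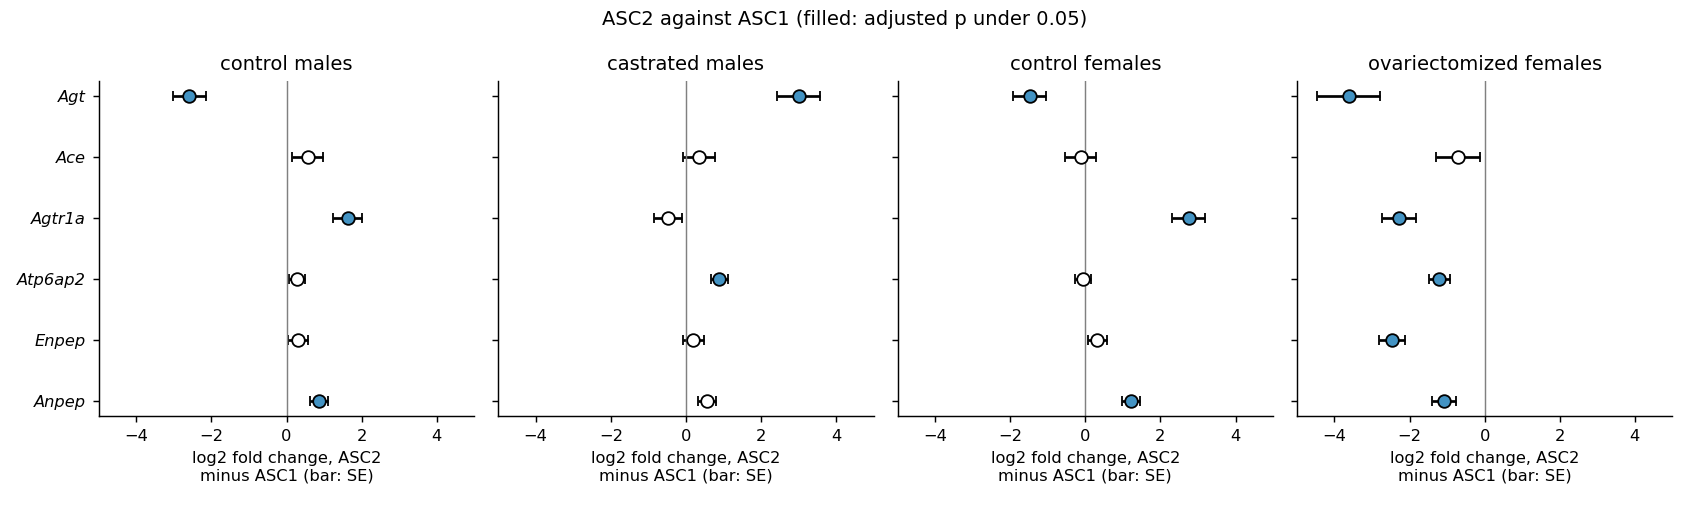
Log2 fold change of ASC2 over ASC1 on the horizontal axis for 6 members (bar, SE; filled, edgeR adjusted p under 0.05) in 4 conditions. Agt lies at -2.59, 3.01, -1.48 and -3.63 from left to right, and Agtr1a is to the right of 0 in both control panels and at -2.28 in ovariectomized females.

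Between control males and control females none of the 7 members passed in ASC1 (0.289% of all genes did) or in ASC2 (6.49%) by edgeR or DESeq2, while 4 and 3 of them had an unadjusted p under 0.05 in edgeR. In ASC1 the log2 fold changes of male over female were 0.94 ± 0.41 SE for Agt, 1.15 ± 0.49 SE for Agtr1a, 0.62 ± 0.25 SE for Anpep and -0.55 ± 0.27 SE for Enpep. Without the 9 of 15 control ASC1 libraries that go against their label, Agt was higher in males by 3.21 ± 0.68 (edgeR adjusted p = 0.0136) and Ace by 2.85 ± 0.67 (edgeR adjusted p = 0.035) on the log2 scale, with 3 libraries of each sex. The males left were of letters B to D and the females A4, E4 and F4, so sex and letter cannot be fully told apart. A4 was kept with 13.1 CPM of Xist and a Y-linked sum of 6.53 CPM, both under the limit. In ASC2 Agtr2 had the largest log2 fold change of male over female, 2.08 ± 0.84 SE (edgeR adjusted p = 0.133), with 104.3 to 337.2 CPM in males and 4.90 to 101.4 CPM in females, which did not overlap. That difference passed with only the groups compared (edgeR adjusted p = 0.0177), without the count filter (0.00864) and by limma (0.0169).

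The AT2 receptor gene Agtr2 (ENSMUSG00000068122.11) stood apart from the other members because it was nearly all or none within groups. Over the 58 libraries 27 had under 10 CPM, 30 had more than 35 CPM and only E3 of control female ASC2, at 12.6 CPM, lay between. In control male ASC1 letters B to D had 0 to 5.45 CPM and letters E to H 92.8 to 184.0 CPM. In control female ASC1 E4 and F4 had 116.1 and 133.6 CPM and the other 6 libraries at most 8.29 CPM. In castrated ASC1 I2 and J2 had 141.1 and 169.1 CPM and the other 6 at most 7.95 CPM. The high libraries were therefore neighbours by letter in these 3 groups. In control ASC1 they were also those with the most Xist, at 57.5 to 71.1 CPM against at most 13.1 CPM in the others. All castrated ASC1 libraries, low and high, had 51.7 to 117.9 CPM. Control female ASC2, given below, had the opposite order. Xist there was at least 67.7 CPM in C3 to E3 and at most 52.6 CPM in the others. The part of sex-linked differences in the Agtr2 results was not tested.

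In ASC2 low and high libraries were found in the operated mice and in control females, and control males had no low library. Castrated ASC2 libraries I1 to K1 had 2.89 to 6.34 CPM and L1 to P1 59.6 to 111.3 CPM. Ovariectomized ASC2 libraries I3 to L3 had 0.92 to 3.13 CPM and M3 to P3 38.3 to 90.0 CPM. Control female ASC2 had C3 to E3 at 4.90 to 12.6 CPM and the other 5 at 40.5 to 101.4 CPM, whereas all 8 control male ASC2 libraries were high. Those 8 still differed by letter without overlap. Letters A to D had 104.3 to 160.6 CPM, and E to H, which go against their label, had 236.2 to 337.2 CPM. In castrated males the letters crossed between populations, since I and J were high in ASC1 and low in ASC2. Ovariectomized ASC1 had 0 Agtr2 reads in 3 of 3 libraries, which allows up to 1.92 CPM over the group, counting error only.

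**Figure D4:**
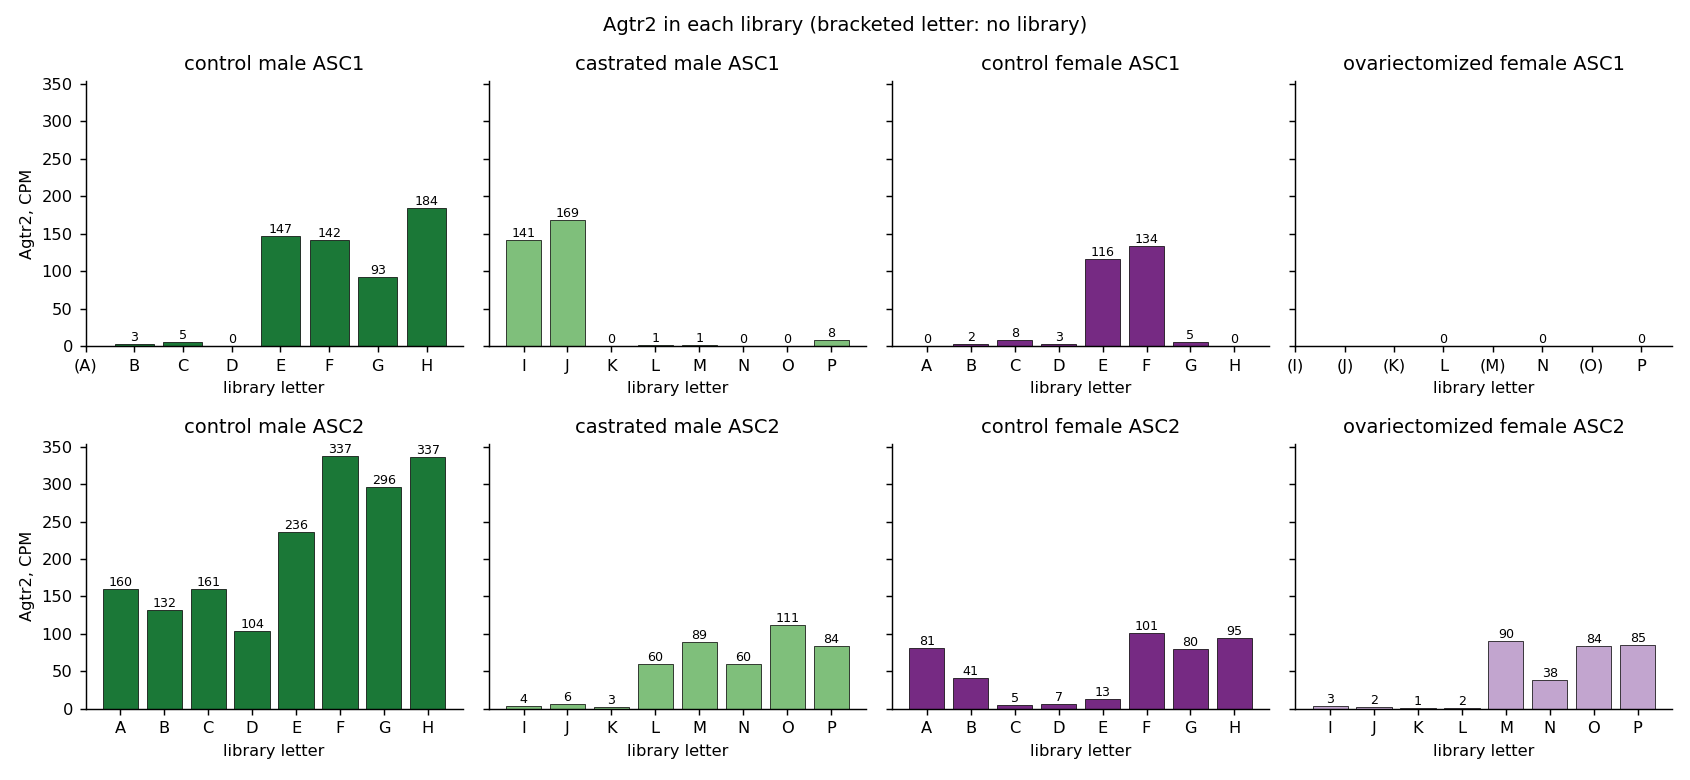
Agtr2 in CPM on the vertical axis for each library, by letter on the horizontal axis, in 8 groups. Letters E to H of control male ASC1, I and J of castrated ASC1, L to P of castrated ASC2 and M to P of ovariectomized ASC2 carry the high values, and all 3 ovariectomized ASC1 libraries are at 0.

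No comparison of Agtr2 passed the threshold in the edgeR fit of all libraries, whose SE for Agtr2 was at least 0.84. The log2 fold change was -0.97 ± 0.89 SE after castration in ASC1, -2.11 ± 0.85 SE in ASC2 (edgeR adjusted p = 0.118) and -0.69 ± 0.93 SE after ovariectomy in ASC2. In ASC2 after castration 8 control libraries were at 104.3 to 337.2 CPM and 8 castrated ones at 2.89 to 111.3 CPM. This difference passed with limma (log2 fold change -3.02, limma adjusted p = 0.0134), with only the groups compared (-2.09, edgeR adjusted p = 0.0281) and without the count filter (-2.11, edgeR adjusted p = 0.00639), and did not pass with control letters A to D (-1.45, adjusted p = 0.322) or E to H (-2.54, adjusted p = 0.171).

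After ovariectomy in ASC1, where all 3 libraries had 0 reads, the difference of Agtr2 did not pass (edgeR adjusted p = 0.107), but it passed with DESeq2 (adjusted p = 0.00957), without the count filter (0.0136) and without libraries against their label (0.0107). Against the same 3 libraries, Agtr2 in ovariectomized ASC2 passed under these settings too (adjusted p = 0.0069, 0.019 and 0.0402). In control males ASC2 was higher than ASC1 by 1.42 ± 0.85 on the log2 scale (edgeR adjusted p = 0.287), and this passed with limma (3.31, limma adjusted p = 0.00427), with letters A to D (5.51, edgeR adjusted p = 0.0264) and without libraries against their label (5.51, edgeR adjusted p = 0.0112). Letters A to D and the libraries that match their label are the same control male libraries, so these values are not separate checks.

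The genes most like Agtr2 over the libraries followed the same libraries. They were Slc14a1 (a urea transporter, r = 0.91), Nefl (the neurofilament light chain, r = 0.88) and Fez1 (a kinesin adaptor of axons, r = 0.88), and over the group means Sept6, Slc14a1 and Map2k6 (r = 0.99 each). The libraries form a low and a high set, so these r describe a shared separation rather than a graded relation. Slc14a1 had a median of 35.5 CPM where Agtr2 was above 35 CPM and 0.49 CPM elsewhere, and its lowest value in the former, 6.66 CPM, lay just under its highest in the latter, 6.77 CPM. In castrated ASC1, I2 and J2 had 21.4 and 66.1 CPM of Slc14a1 and the other 6 at most 1.31 CPM. In castrated ASC2, I1 to K1 had 1.09 to 3.80 CPM and L1 to P1 19.3 to 52.5 CPM. Within groups Agtr2 correlated with Ace at r = -0.44, with Atp6ap2 at -0.38 and with Anpep at -0.38, over libraries that share reads, depth and normalization.

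**Figure D5:**
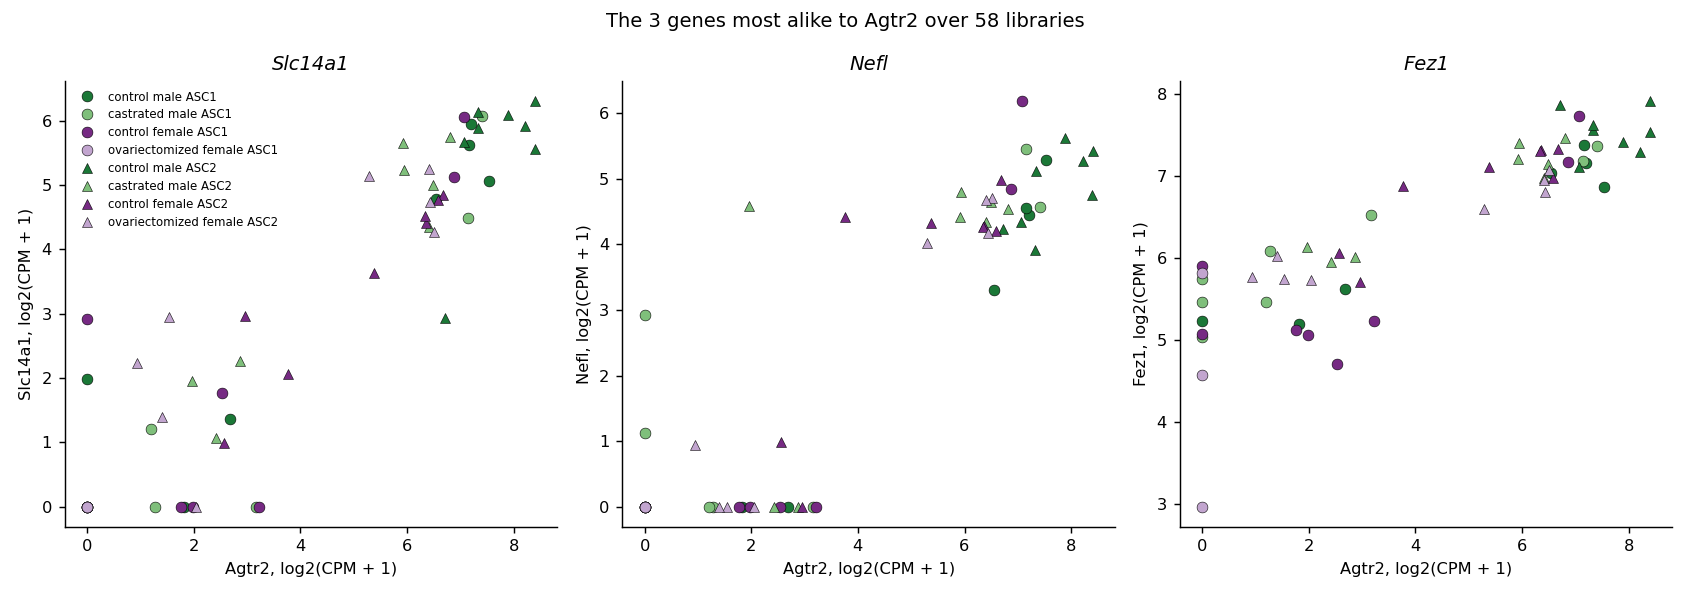
Levels of Slc14a1, Nefl and Fez1 (vertical axes) against Agtr2 (horizontal axes), all as log2(CPM + 1), with 1 point per library (circles ASC1, triangles ASC2; colours, treatment groups). Libraries fall into a low and a high set, with r of 0.91, 0.88 and 0.88 over 58 libraries.

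Renin and the MAS receptor for angiotensin-(1-7) were at the limit of detection. Ren1 had 8 reads in all, in D4 and G4 of control female ASC1 and in J3 and M3 of ovariectomized ASC2, with at most 3.60 CPM. Mas1 had 2 reads, in J2 and L3. A sum of 0 reads allows 0.45 to 1.92 CPM over a group, counting error only, so lower levels were not detectable at this depth. Of the related genes, Agtr1b (the second mouse AT1 receptor gene) had 9 reads in all libraries.

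The other genes of the pathway were listed as peptidases, receptor partners, the corticoid arm, the kinin branch and subunits of the vacuolar proton pump, and 36 of 51 were tested. After castration 2 of 36 passed in ASC1, both higher, and after castration in ASC2 1 was higher and 1 lower. Between the sexes 0 passed in ASC1, with 2 higher in male ASC2. After ovariectomy in ASC1 6 were higher and 6 lower, and in ASC2 0 passed. Beside these counts, 2.36% and 6.95% of all genes tested passed after castration in ASC1 and ASC2, and 34.8% and 2.09% after ovariectomy. Between the sexes these shares were 0.289% and 6.49%.

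After castration in ASC1 the genes were Cyp11b1 (steroid 11-beta-hydroxylase) and Kng1 (kininogen, the bradykinin precursor). The 8 castrated ASC1 libraries all go against their label, so castration cannot be told apart from what set them apart. Cyp11b1 had no read in 7 control male ASC1 libraries and 0, 12.1 and 20.9 CPM at the lowest, median and highest of the 8 castrated ones, and Kng1 had medians of 0.99 and 20.4 CPM (log2 fold change 3.76 ± 0.93 SE, edgeR adjusted p = 0.0143). In castrated ASC2 Atp6v0c, a subunit of the proton pump, was higher by 0.84 and Mme (neprilysin) lower, with a log2 fold change of -1.55 ± 0.50 SE (edgeR adjusted p = 0.0453) and medians of 43.4 CPM in controls and 14.9 CPM after castration. Mme was higher in control males than in control females in ASC2, by 1.60 ± 0.50 on the log2 scale (edgeR adjusted p = 0.0392), as was the pump subunit Atp6ap1, by 0.49.

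In ovariectomized ASC1 the peptidase genes went both ways. Mme was higher by 2.38 ± 0.62 (edgeR adjusted p = 0.00184) and Rnpep (aminopeptidase B) by 1.06 on the log2 scale, while Nln (neurolysin) and Ctsd (cathepsin D) were lower. Nln had 1 read in the 3 ovariectomized libraries together and 19.2 to 37.9 CPM in the 8 controls (edgeR adjusted p = 4.11e-07), and Ctsd had 572.4 to 690.2 CPM against 908.7 to 3786 CPM, without overlap. Sgk1, an aldosterone-induced kinase, was higher by 1.83, with 166.4, 201.5 and 293.2 CPM in the 3 libraries and a highest value of 111.7 CPM in controls. Gnaq, a G protein subunit coupled to AT1, was higher by 0.88, Kng1 was lower with 0 reads after ovariectomy, and of the pump subunits Atp6v0a1 and Atp6v0c were lower and Atp6ap1 and Atp6v1h higher.

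Between ASC2 and ASC1, Hsd11b1 (which reactivates corticosterone) was lower in ASC2 of control males by 2.09 and of control females by 1.79 on the log2 scale. In control males Atp6v0c and Atp6v0a2 were also lower, and in control females Cyp11b1 was higher, so 0 and 3 of 36 genes were higher and lower in males and 1 and 1 in females. In castrated males 3 of 36 were higher (Prcp, the peptidase that can form angiotensin-(1-7), by 0.82, Sgk1 by 1.01 and Atp6ap1 by 0.48) and 2 lower (Cyp11b1 and Kng1). In ovariectomized females 5 were higher and 9 lower, among them Nln higher, Mme lower with a log2 fold change of -5.10, Sgk1 with -2.10, and Arrb1 (beta-arrestin 1). The shares of all genes that passed were 12.2% in control males, 6.11% in control females, 9.07% in castrated males and 35.4% in ovariectomized females. The castration difference between ASC2 and ASC1 passed for Ctsd (1.61), Gna11 (1.10) and Atp6v0c (1.00), all higher, where 2.41% of all genes did. That between castration and ovariectomy in ASC2 passed for 0 of 36, against 0.61% of all genes. The castrated ASC1 libraries used in this paragraph all go against their label.

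In ovariectomized ASC1, beside the higher Agtr1a, Esr1 (estrogen receptor alpha) had 114.5, 123.2 and 192.0 CPM and at most 26.1 CPM in the 8 controls (log2 fold change 3.91 ± 0.47 SE, edgeR adjusted p = 1.44e-09). Between ASC2 and ASC1, Esr1 and Pgr (the progesterone receptor) were higher in ASC2 of control females by 2.03 and 2.94 on the log2 scale. In castrated males, whose ASC1 libraries all go against their label, Pgr was lower in ASC2. In ovariectomized females Esr1 was lower in ASC2 and Pgr higher. Neither Esr1 nor Pgr passed after castration, between the sexes or after ovariectomy in ASC2.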

How the data were processed

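RNA from ASC1 and ASC2 sorted from iWAT was measured by bulk Smart-seq3 in 58 libraries of 8 groups, taken from the sample labels. Adapters were removed by the authors with NGmerge. They checked quality with STAR 2.7.10a on GRCm39, ran Salmon 1.9.0 on Gencode transcripts over all reads (UMI-bearing and internal ones jointly) and dropped libraries with few detected genes. The deposited values are estimated counts per gene without normalization, and 15% of those above 0 were not whole. Every column could be assigned.

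Counts were rounded and read in R 4.3.3. The tested set of 12464 genes (5 reads or more, in over 3 libraries), of which 12371 had a symbol in the gene name table used here, was tested with edgeR 4.0.16 (TMM, glmQLFit, glmQLFTest), 1 coefficient per group, with Benjamini-Hochberg adjustment over all of them and a threshold of 0.05. The SE was obtained from the log2 fold change and its F statistic. The biological coefficient of variation was 35.6%. CPM used TMM-scaled sizes, with a pseudocount of 1 CPM for correlations, and a count of 0 was given a limit of 3 counts over the group. Total reads ranged from 106562 to 1421518. On simulated counts with 200 of 12203 genes changed 4-fold, the castration test in ASC2 recovered 152 with 6 false calls. No library was a copy of another of its group (chi-square per gene of 1.53 or more). Promoters were read from RefSeq tables of GRCm38.p6, and none was listed for Agtr1a. No genome of the build of the files was used.

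The members are all 9 named. Pathway genes are named when past the threshold (at most 4 per list and comparison, by smallest p), with the 3 genes most correlated with each member of at least 5 CPM on average. Members, lists and tests were chosen with earlier results of these data known. Libraries of control letters A to D and E to H were compared after the split had been seen. Alternatives were RLE factors, no filter, DESeq2 1.42.0, limma 3.58.1 voom with a correlation within presumed mouse, only the groups compared, blocks, libraries against their sex label left out and each ovariectomized ASC1 library left out. Some genes of the pathway and marker lists are not reported here.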

Additional observations from a re-analysis of the deposited data

Results flagged for a closer look

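The castration differences of Agt in ASC1 (log2 fold change -4.51) and ASC2 (1.09, not past the threshold) had opposite signs and were 5.60 apart, and those of Agtr1a (1.01 and -1.11, the former not past the threshold) differed by -2.12, each ASC2 minus ASC1. The castrated ASC1 libraries in these differences all go against their label. In ASC2 the log2 fold change of Agt after castration (1.09) minus that after ovariectomy (-3.03) was 4.12. Of 49 sets of libraries (7 members in the 7 groups of 4 to 10 libraries), 4 held a library far from the others by Dixon's test, where chance gives about 1 in 20. They were Agt in P2 of castrated male ASC1 at 15.9 CPM from 4 reads (next library 3.92 CPM), Agtr1a in E3 of control female ASC2 at 77.2 CPM (next 38.3 CPM), Atp6ap2 in P3 of ovariectomized female ASC2 at 8.54 CPM from 1 read (next 62.3 CPM) and Anpep in D1 of control male ASC2 at 368.5 CPM (next 204.5 CPM). P3 was the shallowest of the 58 libraries, with 106562 reads.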

How the results depend on the processing

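Of the 26 member calls, 13 were kept under every alternative run, none changed direction, and 32 of 231 recomputed values lost the threshold. No call was lost with RLE size factors, without the count filter or with DESeq2. The number of members past the threshold after castration in ASC1 was 1, and 2 without the filter, 2 with DESeq2 and 3 with control letters A to D. The gains were Ace (no filter), Atp6ap2 (DESeq2) or both (A to D). After castration in ASC2 it was 3, and 0 with letters E to H. With only the groups compared it was 1, which was Agtr2, so Ace, Agtr1a and Anpep were all lost, and Agtr2 also passed without the filter and with limma. Between the sexes it was 0, and 2 in ASC1 without libraries against their label and 1 in ASC2 without the filter, with only the groups compared or with limma. After ovariectomy in ASC2 it was 2, and 0 without libraries against their label, 0 with letters A to D, 4 with E to H and 1 with limma. For ASC2 against ASC1 it was 3 in control males and 1 with letters E to H, and 3 in control females and 1 without libraries against their label or 0 with letters A to D. For the castration difference in ASC2 against ASC1 it was 2, and 1 with letters E to H. For castration against ovariectomy it was 1, and 0 without libraries against their label, 0 with letters A to D, 0 with limma and 2 with E to H. The settings by letter and label use fewer libraries, and other causes were not tested. After ovariectomy in ASC1 the count was 3 to 4 with each of the 3 libraries left out, and 5 in each case for ASC2 against ASC1 in ovariectomized females. Agtr2 was gained in both of these comparisons without the filter, with DESeq2 and without libraries against their label.

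Whether shared letters pair libraries could not be decided, because libraries of different letters were not compared. No set had every correlation above 0.1. Between ASC1 and ASC2 of a letter, the 7 control male pairs had r of 0.053 to 0.19. The median r was -0.016 in castrated males, -0.0034 in control females and 0.013 in ovariectomized females. With a replicate block by presumed mouse the counts were 3, 3, 2 and 5 for ASC2 against ASC1 (control males, control females, castrated males, ovariectomized females) and 2 for the castration difference between them, as without it, and with a replicate block by letter they were 0 and 0 between the sexes. All 72 group levels moved by less than 1 SD on plain library totals. Low read numbers limit Agt, Agtr1a, Ren1 and Mas1 most.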
